A study of Homo sapiens with 12 samples.

Results

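The 53 genes described here encode homeobox transcription factors that lie outside the HOX clusters. They were chosen by name from 9 classes, and all 53 were matched by symbol among 19974 protein-coding genes of the autosomes and X. Homeobox proteins bind DNA through a homeodomain and set the identity of regions and cell types in the embryo, among them motor neurons, sensory neurons, pancreas, heart and limb. In pluripotent cells most of these genes are silent, and many of their promoters are known targets of Polycomb repression. The nuclear lamina is another repressive surrounding. Chromatin that touches it forms lamina-associated domains (LADs), which are known to be poor in genes and low in transcription.

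LADs had been mapped by pA-DamID, in which an antibody against lamin B1 (LMNB1) brings a fusion of protein A and the Dam methylase to the lamina, so that nearby GATC sites are marked and sequenced. The 12 libraries all came from 1 human embryonic stem cell line, H9, with no treatment. Cells in mTeSR medium, called primed, gave 3 LMNB1 libraries and 3 with untethered Dam (Dam-only). Cells in RSeT medium, called naive, gave another 3 and 3. Each state is represented by 1 list of LAD intervals. The lists hold coordinates only, so expression of these genes, markers of the labelled cell state and sequencing depth could not be read from them, and differences between states are values of 1 list against 1 list without replicate error. The naive list held 9178 LADs over 47.5% of the assembled span and the primed list 5671 over 43.5%, all in steps of 10 kb.

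Each gene body was set against both lists by 3 measures, namely the share of its bases in LADs, the distance to the nearest LAD, and the LAD share of the 1 Mb centred on it. A gene with at least 50% of its body covered was placed in a LAD. A gene with no LAD base in its body, but with LADs over at least 50% of the surrounding 1 Mb, was called a free island. Gene positions are 1-based RefSeq coordinates of GRCh38.p14.

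The homeobox genes were spread over the whole range from LAD-free regions to the inside of LADs, and those in LAD-rich regions split into covered genes and free islands. In naive cells 8 of 53 gene bodies lay in LADs, against 18.9% of all protein-coding genes. In primed cells it was also 8 of 53, against 17.3%. The sets shared 7 genes. Free islands numbered 9 in naive, where the share among all protein-coding genes was 2.51%, and 6 in primed, where it was 1.52%. Of these, 5 were islands in both states, against 0.856% of all protein-coding genes. No LAD base was found within the surrounding 1 Mb of 20 genes in naive (53.4% of all protein-coding genes) and of 29 genes in primed (59.4%). The median LAD share of the surrounding 1 Mb was 14.0% in naive and 0% in primed over the 53 genes, and 0% in both states over all protein-coding genes.

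**Figure D1:**
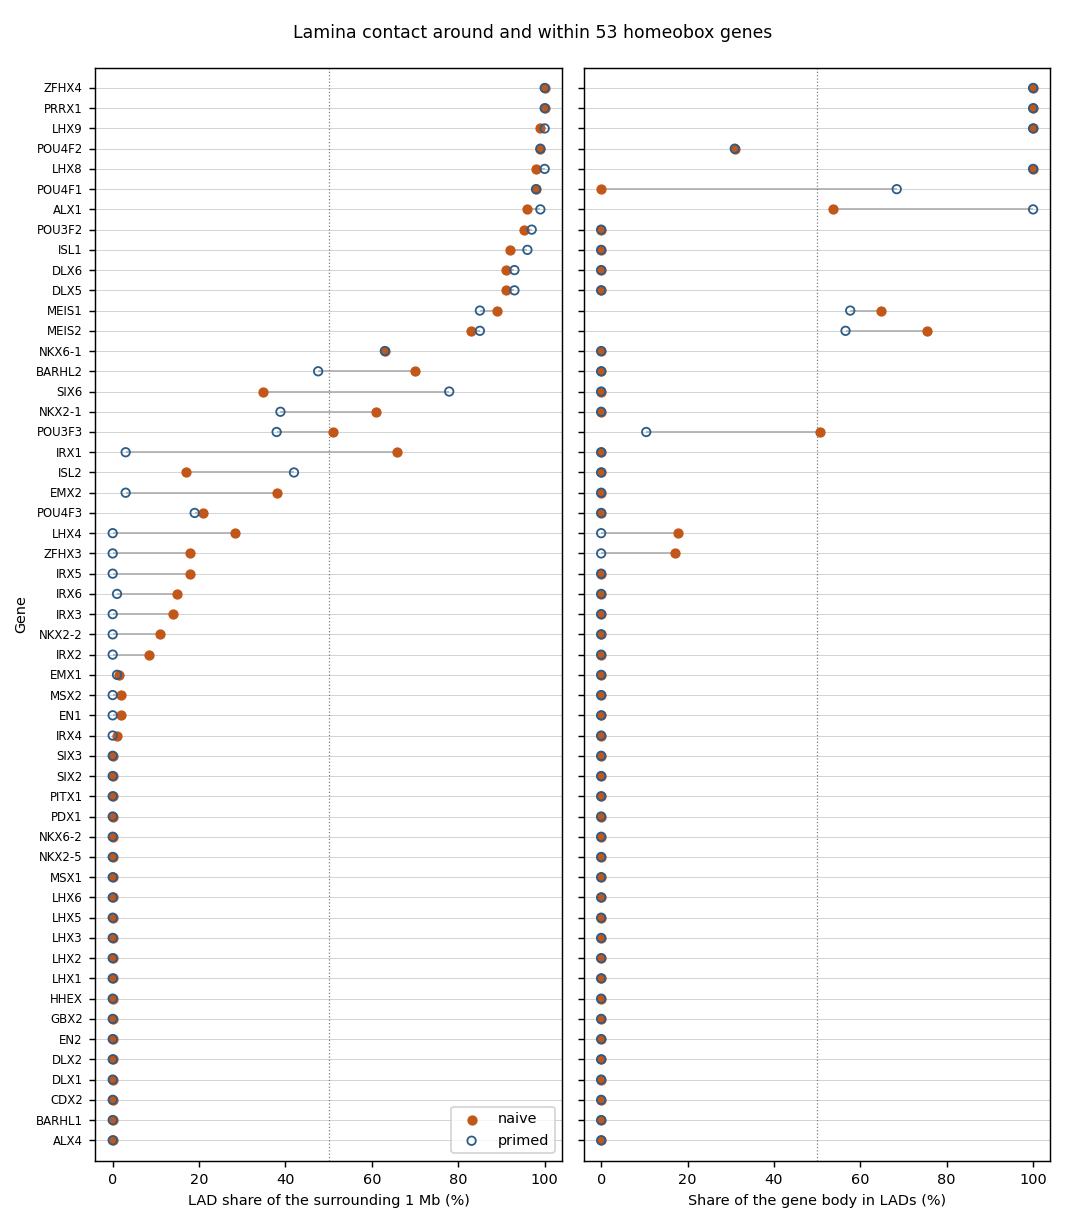
LAD share of the surrounding 1 Mb (left, percent) and share of the gene body in LADs (right, percent) for the 53 homeobox genes in naive (filled) and primed (open) cells, ordered by the mean of both shares on the left. From 50% LAD upward on the left, genes such as ISL1, POU3F2, DLX5 and DLX6 stay at 0% on the right while PRRX1, ZFHX4, LHX8 and LHX9 stand at 100%.

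Among genes in LAD-rich surroundings, the division was uneven in comparison with other genes. In naive, 18 of the 53 genes had at least 50% LAD in the surrounding 1 Mb. Of these, 8 lay in LADs, 9 were free islands and POU4F2 was partly covered. Over all 4391 protein-coding genes in such surroundings, 80.2% lay in LADs and 11.4% were free islands. In primed, 15 genes had such surroundings, of which 8 lay in LADs and 6 were free islands, against 86.2% and 8.01% of 3784 protein-coding genes. The 53 genes are short, with a median body of 6.80 kb against 24.2 kb over all protein-coding genes, and short genes are more often free. Among genes under 25 kb in such surroundings, 9 of 12 homeobox genes were islands in naive against 20.3% of 1595 protein-coding genes, and 6 of 10 in primed against 15.2% of 1398. DLX5 and DLX6 share a gap, so the 9 naive islands stand for 8 loci and the 6 primed ones for 5. The genes were put together with earlier results of these lists known, so these counts describe them and test nothing.

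The narrowest island gaps, of 20 kb, were those of ISL1 and POU3F2 in both states, POU4F1 in naive and SIX6 in primed. ISL1 (chromosome 5, 51383448 to 51394730), a LIM homeobox factor of motor neurons, heart and pancreatic islets, sat in a gap of 20 kb that was the same in both states. The nearest LAD ended 3.45 kb to its left and the next began 5.27 kb to its right. LADs filled 92% of the surrounding 1 Mb in naive and 96% in primed. The flanking LADs were 200 kb and 160 kb long in naive, and 200 kb and 2020 kb in primed. POU3F2 (chromosome 6, 98834574 to 98839458), a POU factor of neural precursors, likewise lay in a gap of 20 kb found in both lists. Its right flank was closest of all, with the LAD beginning 0.542 kb beyond the gene, a distance far below the 10 kb step of the lists. LADs covered 95.3% of its surroundings in naive and 97% in primed.

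Gaps of this width rarely enclose a whole gene, though many touch one. The naive list has 1401 gaps of exactly 20 kb, of which 39 (2.78%) enclose a whole protein-coding gene and 823 touch one. The primed list has 874, of which 31 (3.55%) enclose one and 464 touch one. A protein-coding gene of median length, 24.2 kb, is too long for such a gap. ISL1 and POU3F2 were each the only protein-coding gene in their gap. The bases before the start sites of both genes are shown with those of LHX9, a factor of gonad and limb whose start lay inside a LAD in both states, as examples of the free and the covered arrangement. They are RefSeq sequences of GRCh38.p14, 5′ to 3′ on the gene's strand and 250 bases long, ending just before the start site, with CpG dinucleotides in capitals. The stretch of ISL1 is chr5:51383198-51383447 (+), that of POU3F2 chr6:98834324-98834573 (+) and that of LHX9 chr1:197912214-197912463 (+).
ISL1: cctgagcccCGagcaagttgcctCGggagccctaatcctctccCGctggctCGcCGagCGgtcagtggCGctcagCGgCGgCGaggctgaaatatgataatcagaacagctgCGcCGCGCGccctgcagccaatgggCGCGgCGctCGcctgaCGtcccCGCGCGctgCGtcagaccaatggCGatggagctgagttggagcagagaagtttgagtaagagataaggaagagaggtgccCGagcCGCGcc
POU3F2: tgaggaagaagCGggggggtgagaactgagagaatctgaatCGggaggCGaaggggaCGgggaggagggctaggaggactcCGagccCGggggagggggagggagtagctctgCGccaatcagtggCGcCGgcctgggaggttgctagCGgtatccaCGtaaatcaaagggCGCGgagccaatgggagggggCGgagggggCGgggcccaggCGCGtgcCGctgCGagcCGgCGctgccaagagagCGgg
LHX9: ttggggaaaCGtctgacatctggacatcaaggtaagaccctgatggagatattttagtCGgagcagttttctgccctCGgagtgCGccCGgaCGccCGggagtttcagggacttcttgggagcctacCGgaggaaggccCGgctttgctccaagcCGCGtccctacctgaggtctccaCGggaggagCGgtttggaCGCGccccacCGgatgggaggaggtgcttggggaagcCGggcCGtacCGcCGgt
The ISL1 stretch has 27 CpG and 65.2% G and C, that of POU3F2 22 CpG and 69.2%, and that of LHX9 20 CpG and 62.8%. The other bodies covered from end to end with a matched promoter, LHX8 and PRRX1, had fewer CpG, 13 and 11 in the 300 bases around the start, against 23 for LHX9, 36 for ISL1 and 24 for POU3F2. Covered starts were not all low in CpG. POU4F2, whose start lay in a LAD in both states, had 30, and POU4F1, whose start lay in a LAD in primed only, had 47.

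POU4F1, POU4F2 and POU4F3, the BRN3 factors of sensory neurons, retinal ganglion cells and hair cells, showed 3 different arrangements. POU4F1 (chromosome 13, 78598362 to 78603552) was a free island in naive, in a gap of 20 kb between LADs of 4210 kb and 700 kb, with 98% LAD in the surrounding 1 Mb. In primed the same 98% held, but a single 10 kb LAD (78600001 to 78610000) lay over the promoter side of the gene and covered 68.4% of it. That call rests on 1 window: with LADs of a single window left out, an alternative added after seeing the data, POU4F1 joined the islands and primed had 7 of them. POU4F2 (chromosome 4, 146638893 to 146642474) had 30.9% of its body covered in both states, since a single free window (146640001 to 146650000) in a region with 99% LAD began inside the gene. It missed the island definition by its first 1.11 kb, which hold the start site. POU4F3 (chromosome 5) lay outside, 289 kb from the nearest naive and 309 kb from the nearest primed LAD, with 21.0% and 19.0% LAD around it.

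DLX5 and DLX6, neighbouring factors of jaw, limb and forebrain interneuron development on chromosome 7, shared 1 gap. It was 50 kb wide in both states, from 96980001 to 97030000 in naive and from 96990001 to 97040000 in primed, so the free stretch common to both was 40 kb. LADs made up 91% of the surrounding 1 Mb in naive and 93% in primed. The left flank was a naive LAD of 340 kb and a primed one of 840 kb. The right flank was shorter, 80 kb in naive and 40 kb in primed. No other protein-coding gene reached into the gap. Their paralogs DLX1 and DLX2 on chromosome 2 lay in a LAD-free stretch of 5.92 Mb in naive and 4.78 Mb in primed, with 43 and 38 protein-coding genes in or reaching into it.

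NKX6-1 (chromosome 4, 84491985 to 84499292), a factor of pancreatic beta cells and ventral spinal cord, was an island in both states. The naive gap measured 110 kb and the primed gap 80 kb, and 63% of the surrounding 1 Mb was LAD in each. Many of the LADs around it were short. Without LADs under 50 kb the share fell to 42% in both states, below the island threshold.

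The other islands were called in 1 state only. BARHL2 (chromosome 1, 90711539 to 90717302), expressed in retina and spinal cord during development, lay in a naive gap of 40 kb with 70% LAD around it. In primed the gap was 90 kb and the share 47.6%, just under the threshold. NKX2-1 (chromosome 14, 36516397 to 36520232), a regulator of thyroid, lung and ventral forebrain, had 61% in naive and 38.8% in primed. Its gap widened from 140 kb to 210 kb. In naive it held NKX2-8 besides, and in primed also PAX9 and part of SLC25A21. The naive share fell to 40.8% without LADs under 50 kb, which ended the island call. IRX1 (chromosome 5, 3595832 to 3601403), an Iroquois factor, went from 65.9% in naive to 3% in primed. In naive it lay in a gap of 60 kb bounded by LADs of 10 and 20 kb, and in primed in a gap of 500 kb bounded by single windows of 10 kb. The naive island of IRX1 was lost, narrowly, when LADs under 50 kb were left out (49.9%).

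SIX6 (chromosome 14, 60509146 to 60512850), a factor of eye and pituitary development, went the other way. The surrounding share was 34.9% in naive and 77.9% in primed, and its gap narrowed from 50 kb to 20 kb. The primed gap lay between LADs of 160 kb and 70 kb. C14orf39 reaches into the gap in both lists. Next to the island threshold of 50%, the genes with a free body closest to it were NKX2-1 (61%) and EMX2 (38%) in naive, and NKX6-1 (63%) and BARHL2 (47.6%) in primed.

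**Figure D2:**
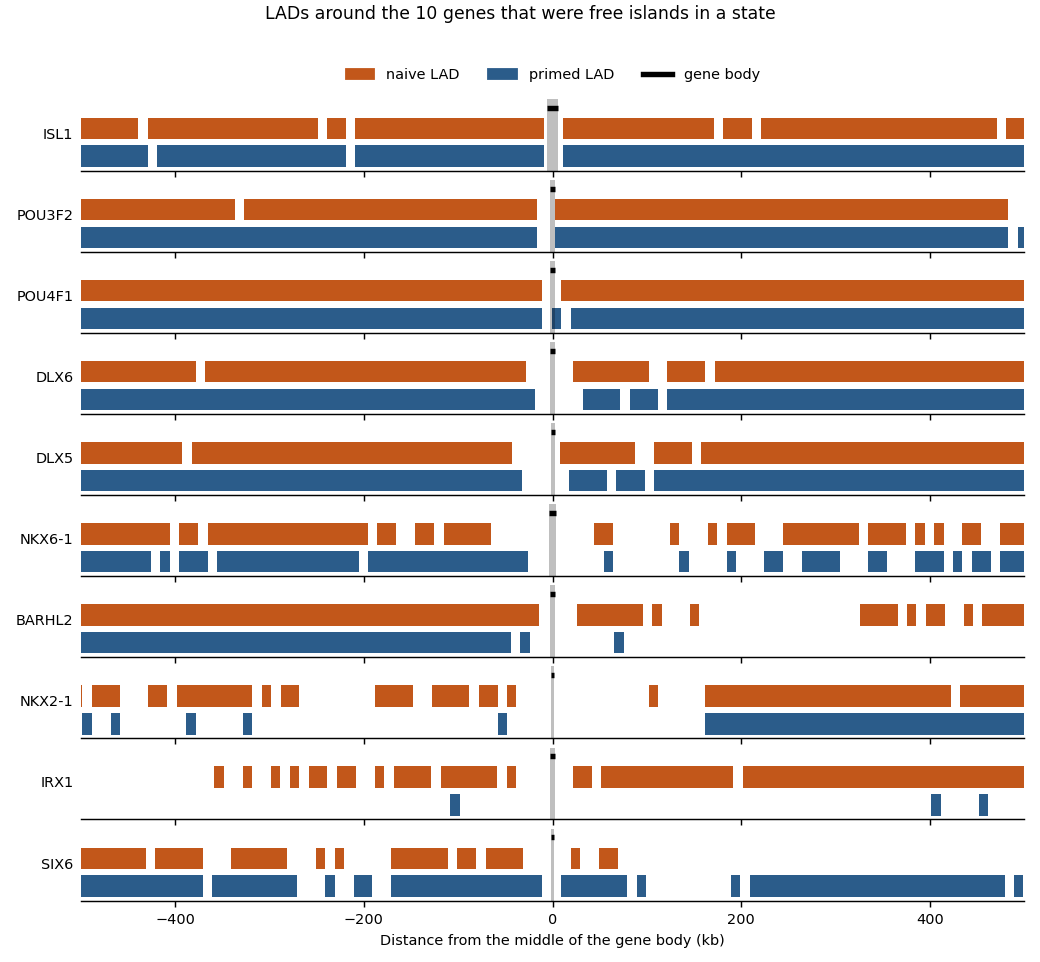
LADs within 500 kb of the middle of the gene body for the 10 genes that were a free island in at least 1 state, naive above primed in each row, with the gene body in black and its extent shaded. Distances are in kb. The gap around ISL1 and that around POU3F2 is 20 kb in both states, whereas IRX1 has LADs on both sides in naive and only scattered windows in primed.

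Of the 8 genes in LADs in each state, 4 lay wholly inside a long LAD in both states. PRRX1 (chromosome 1, 170662768 to 170739421), a factor of limb and craniofacial mesenchyme, was inside a naive LAD of 2.10 Mb and a primed LAD of 3.14 Mb, with the nearest edge 741 kb and 751 kb away. ZFHX4 (chromosome 8, 76681247 to 76867281), a large zinc finger homeobox gene, was inside LADs of 2.52 Mb and 5.59 Mb, with the nearest edge 983 kb and 2591 kb away. LHX8 (chromosome 1, 75128434 to 75199454), needed in oocytes and forebrain cholinergic neurons, was inside LADs of 0.830 Mb and 3.72 Mb. LHX9 (chromosome 1, 197912464 to 197935478) was inside LADs of 1.18 Mb and 7.02 Mb. The LAD around each of these genes was longer in the primed list, and the gene itself was covered at 100% in both. These calls held under all 4 settings that joined nearby LADs or left out short ones.

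ALX1 (chromosome 12, 85280220 to 85301784), a factor of the facial skeleton, was wholly inside a primed LAD of 4.08 Mb. In naive it was covered at 53.6%, because a single free window of 10 kb cut through the body between LADs of 30 kb and 660 kb. Without LADs under 50 kb, 8.27% remained and ALX1 was not in a naive LAD. Its paralog ALX4 on chromosome 11 was free, 940.4 kb from the nearest naive and 960.4 kb from the nearest primed LAD.

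MEIS1 and MEIS2, large TALE class genes whose products are cofactors of HOX proteins, were covered along the middle of the gene and free at the start. MEIS1 (chromosome 2, 66435125 to 66573869) had 64.9% of its 139 kb in naive LADs and 57.7% in primed LADs. The start site lay in a free stretch, 40 kb wide in the naive and 80 kb wide in the primed list, and coverage began 14.9 kb and 44.9 kb into the gene. MEIS2 (chromosome 15, 36889204 to 37101311) is on the minus strand and had 75.4% of its 212 kb covered in naive and 56.6% in primed. Its start site was also in a free stretch, of 40 kb (naive) and 60 kb (primed), and its other end in one of 40 kb in both. Thus both genes counted as in LADs by their bodies, while by their start sites they did not. Without LADs under 50 kb, naive MEIS1 (43.2%) and primed MEIS2 (23.6%) dropped below 50%. Without LADs under 100 kb, MEIS1 in both states and MEIS2 in primed had no LAD base left and counted as islands, with 79%, 74% and 73% LAD around them.

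POU3F3 (chromosome 2, 104853276 to 104927773), a POU factor of brain and kidney, changed sides of the threshold. Its 74.5 kb body was covered at 50.7% in naive, barely above 50%, by 1 LAD of 50 kb over the far end of the gene, and at 10.4% in primed by a single window. Free stretches of 70 kb (naive) and 100 kb (primed) held its start site. LHX4 and ZFHX3 were partly covered in naive only. LHX4, a pituitary and motor neuron factor, had 17.8% of its body in 1 naive window at its far end. ZFHX3, whose body spans 1109 kb, had 17.1% covered by 14 short LADs of 10 to 30 kb, and its nearest primed LAD was 473 kb away.

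**Figure D3:**
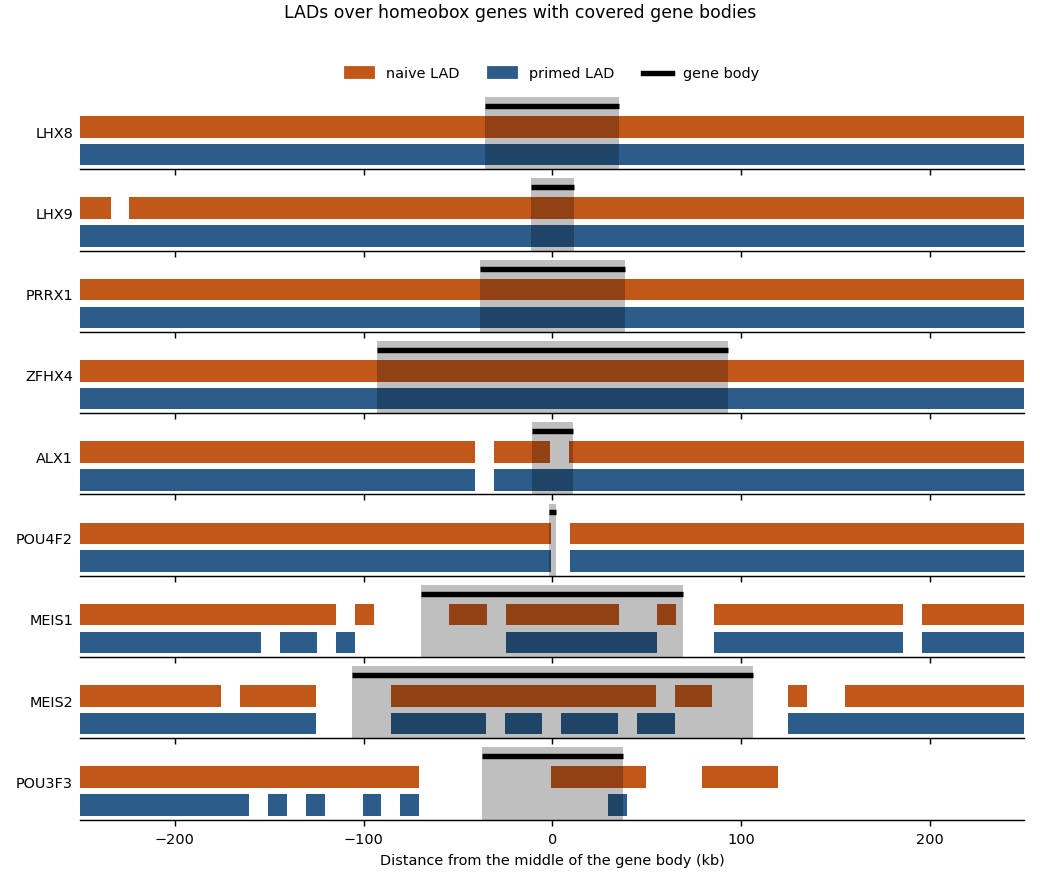
LADs within 250 kb of the middle of the gene body for the 8 genes in naive LADs and for POU4F2, naive above primed in each row, with the gene body in black and its extent shaded. Distances are in kb. LHX8, LHX9, PRRX1 and ZFHX4 are covered from end to end, whereas LADs over MEIS1, MEIS2 and POU3F3 leave the start side of the gene free.

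Start sites were covered slightly less often than bodies, by a difference in small counts. RefSeq promoters were matched for 38 of the 53 genes, and those of ALX1, ALX4, DLX5, EMX1, EN1, IRX3, IRX5, IRX6, LHX1, LHX5, NKX2-5, NKX6-2, PDX1, SIX3 and ZFHX4 are not given. Of the 38 start sites, 4 lay in naive LADs (LHX8, LHX9, PRRX1 and POU4F2) and 5 in primed LADs (the same with POU4F1), while 6 of the 38 bodies lay in LADs in each state. Over all protein-coding genes, 2814 of 15813 start sites lay in naive and 2754 in primed LADs, against 3073 and 2817 bodies of the same genes.

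The differences between states were mostly towards more LAD sequence around homeobox genes in naive. The LAD share of the surrounding 1 Mb was higher in naive for 18 genes (27.8% of all protein-coding genes), higher in primed for 10 (17.8%) and equal for 25, among them the 20 at 0% in both. The nearest LAD was closer in naive for 31 genes (49.5%), closer in primed for 10 (26.8%) and equally far for 12. The same lean towards naive was present over all protein-coding genes. Gaps of 20 points or more in the surrounding share were found for 5 genes in the naive direction (6.80% of all protein-coding genes) and for 2 in the primed direction (1.52%). The 5 were IRX1, EMX2, LHX4, BARHL2 and NKX2-1, and the 2 were SIX6 and ISL2. In the covered share of the body, 1 gene, POU3F3, was at least 20 points higher in naive (5.51%) and 2 genes, ALX1 and POU4F1, were at least 20 points higher in primed (3.08%). These are small counts close to that background, and the naive list covers more of the genome as a whole.

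Both Iroquois clusters, whose genes pattern the neural plate, heart and limb, had naive LADs nearby that the primed list did not have. On chromosome 16, IRX3, IRX5 and IRX6 were 43.3, 60.9 and 24.2 kb from the nearest naive LAD, against 1303, 656 and 259 kb in primed. The surrounding LAD share was 14%, 18% and 15% in naive and 0%, 0% and 1% in primed. On chromosome 5, IRX2 was 58.3 kb from a naive and 738 kb from a primed LAD, and IRX4 227 kb and 1603 kb. Most naive LADs near these 5 genes were single windows: with LADs of at least 100 kb alone, IRX3 was 1413 kb and IRX6 2454 kb from the nearest naive LAD. IRX1, the third gene of the chromosome 5 cluster, was bounded by naive LADs of 10 and 20 kb but had longer ones beyond them, the nearest LAD of at least 100 kb being 48.6 kb away, against 4289 kb in the primed list.

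EMX2 (chromosome 10), a factor of cortex and urogenital development, had a naive LAD 10.5 kb beyond its end and a primed LAD no closer than 453 kb, with 38% and 3% of the surroundings in LADs. Around LHX4 (chromosome 1) the share was 28.4% in naive and 0% in primed. ISL2 (chromosome 15), a motor neuron factor, had 17% in naive and 42% in primed. LADs lay on 1 side of it only, beginning 37.5 kb (naive) and 27.5 kb (primed) to the right of the gene, while to the left the nearest LAD was 4647 kb and 14137 kb away. The LAD to the right was 100 kb long in primed but a single window of 10 kb in naive. The nearest naive LAD of at least 100 kb was 7228 kb away. ISL2 thus stood beside a long LAD in primed only, and it was no island in either state, unlike its paralog ISL1.

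**Figure D4:**
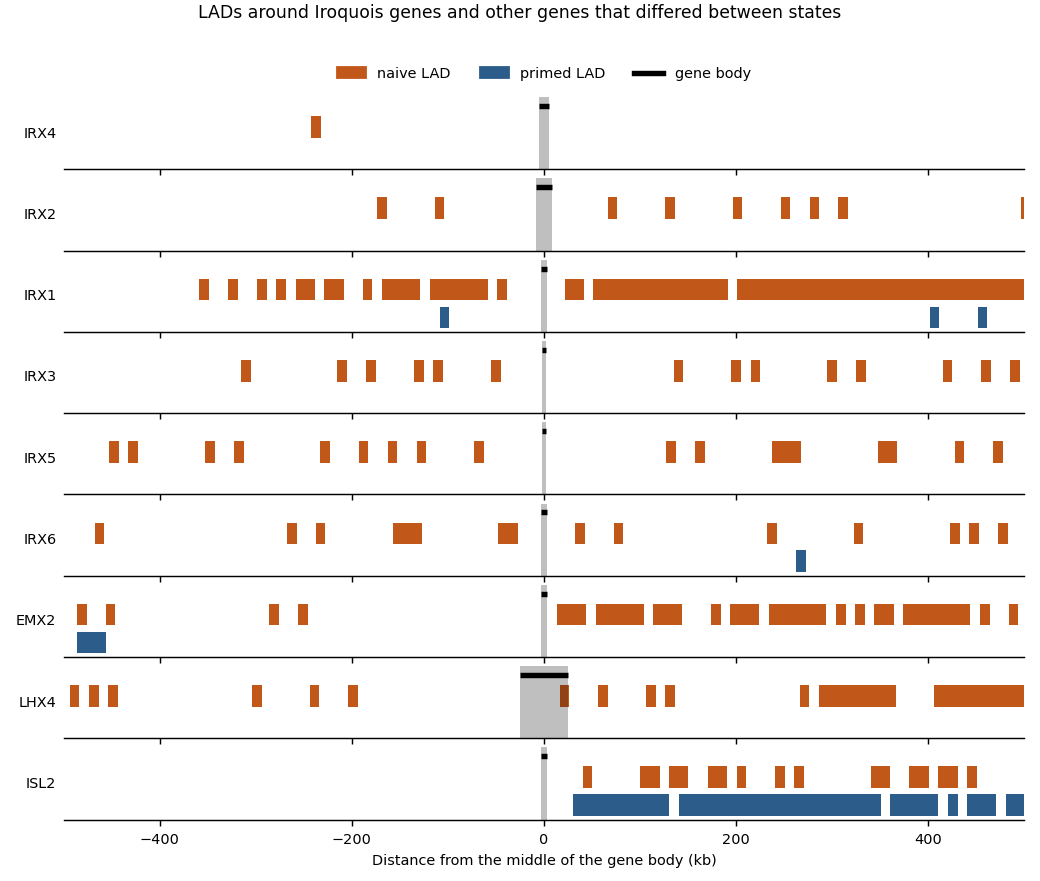
LADs within 500 kb of the middle of the gene body for the 6 Iroquois genes and for EMX2, LHX4 and ISL2, naive above primed in each row, with the gene body in black and its extent shaded. Distances are in kb. Around the Iroquois genes of chromosome 16 the naive LADs are scattered windows of 10 to 30 kb and the primed list has 1 window, near IRX6.

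Other genes lay in regions with few or no LADs. The body was free in 42 of 53 genes in naive (76.2% of all protein-coding genes) and in 43 in primed (79.2%), and the nearest LAD was at least 1 Mb away for 15 genes in naive (42.2% of all protein-coding genes) and 18 in primed (47.2%). Nearer were NKX2-2, a factor of ventral spinal cord and pancreas, at 77.3 kb from a naive and 497 kb from a primed LAD, and EN1 (222 and 922 kb), MSX2 (225 and 3635 kb) and EMX1 (396 kb in both). The 3 farthest from LADs of either state were LHX3, MSX1 and BARHL1. LHX3, a pituitary factor near the end of chromosome 9, was 15.9 Mb from the nearest naive and 8.13 Mb from the nearest primed LAD. MSX1, a factor of tooth and palate, was 5.33 and 5.36 Mb away on chromosome 4. BARHL1, of cerebellum and inner ear, was 12.3 and 4.51 Mb away on chromosome 9, in contrast to its paralog BARHL2, which lay 11.5 and 21.5 kb from a LAD. CDX2 and PDX1, the gut and pancreas regulators that lie side by side on chromosome 13, shared a LAD-free stretch of 8.66 Mb in naive and 8.59 Mb in primed. NKX2-5, the heart regulator, was 1255 kb from a naive and 2142 kb from a primed LAD. For HHEX, a factor of liver and blood development, the distances were 580.0 kb and 950.0 kb. The median distance over the 53 genes, 60.9 kb from naive and 656 kb from primed LADs, compares with 609 kb and 869 kb over all protein-coding genes. These distances count LADs of any length, and no such comparison is given for longer LADs alone.

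**Figure D5:**
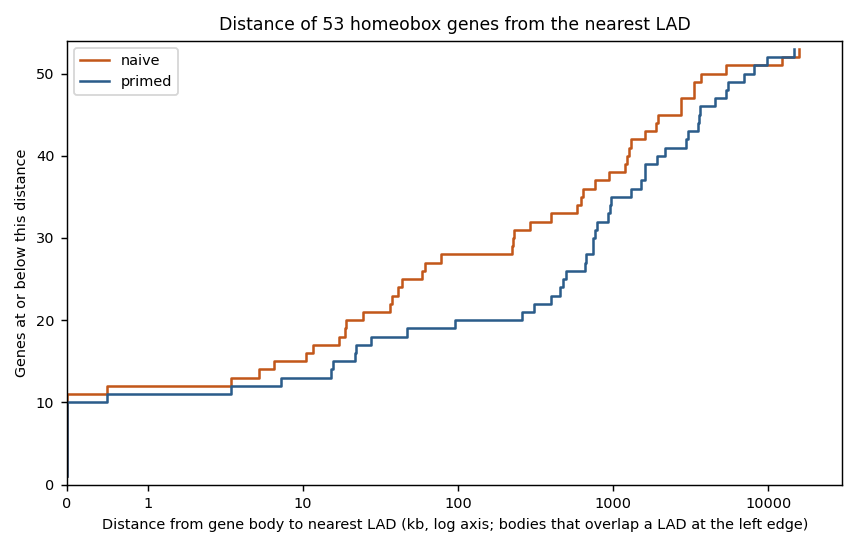
Number of the 53 homeobox genes (vertical axis) whose nearest LAD lies at or below a given distance from the gene body (horizontal axis, kb, log scale) in naive and primed cells. Bodies that overlap a LAD, 11 in naive and 10 in primed, are drawn at the left edge. The lines part between 20 and 1000 kb, where the naive line is higher.

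The nearest LAD was often short. Counting only LADs of at least 100 kb, the median distance was 1355 kb to a naive and 2323 kb to a primed LAD. Around the islands, 8 of the 16 LADs that bound the 8 naive gaps, and 7 of the 10 that bound the 5 primed gaps, were at least 100 kb long. ISL1 and POU3F2 had such a LAD at 3.45 and 0.542 kb in both states. In naive, NKX2-1 had none closer than 160 kb and NKX6-1 none closer than 192 kb.

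Class by class, the placements were mixed, and the classes are small. Over all protein-coding genes, 18.9% lay in LADs in naive and 17.3% in primed, and 2.51% and 1.52% were islands. In the LIM class of 10 genes, LHX8 and LHX9 lay in LADs, ISL1 was an island, and 5 genes in naive and 6 in primed had no LAD base in the surrounding 1 Mb. Among 5 NKX genes none lay in LADs, with 2 naive islands and 1 primed. Among 13 other NK-like genes none lay in LADs, with 3 naive islands and 2 primed. The 8 TALE genes had MEIS1 and MEIS2 in LADs and IRX1 as a naive island. The 5 POU genes had the highest surrounding share, with a median of 95.3% in naive and 97% in primed. Of the 4 PRD class genes, ALX1 and PRRX1 lay in LADs while PITX1 and ALX4 had none within the surrounding 1 Mb. GBX2, PDX1 and CDX2, the genes closest to the HOX class, also had none in either state.

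Gene density and promoter sequence, which the choice of genes did not use, were set beside these placements. The surrounding 1 Mb of a homeobox gene held a median of 4 other protein-coding genes, against 12 over all protein-coding genes. For the 10 islands the median was 2, with a range of 0 for ISL1 and IRX1 to 10 for SIX6. For the 8 homeobox genes in LADs of either state that were no islands it was 3.5. For the 20 genes with no LAD base around them in either state it was 8. Over all protein-coding genes, the median was 6 for islands and 5 for genes in LADs, in naive and primed alike. In the 300 bases from 250 before to 50 after the start site, the 38 matched homeobox promoters held a median of 29.5 CpG (2 to 50), against 22 in 15813 promoters of all protein-coding genes. The 9 island genes with a promoter had 21 to 47 CpG, with a median of 24. The 5 matched genes in LADs of both states had 11 to 35, with a median of 18, and their lowest values were those of PRRX1 (11) and LHX8 (13). They include MEIS1 (18) and MEIS2 (35), whose start sites lay outside LADs in both states. The 22 matched homeobox genes with under 50% LAD around them in both states had 2 to 50, with a median of 30.5, above that of the islands. Over all protein-coding genes, the median was 22 for naive islands, 15 for genes in naive LADs and 23 for genes with under 50% LAD around them. GATC, the Dam target, reads the same on both strands and occurred in 12 of the 38 homeobox windows, against 39.7% of all 15813. It was in 3 of the 9 island windows. These are counts in 300 bases, and GATC content over whole 10 kb windows was not analysed here. Its part in the gaps was not tested.

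Other homeobox genes gave a lower count of naive islands. Of 98 homeobox genes outside the HOX clusters that are not among the 53, 15 lay in naive and 10 in primed LADs. Over all protein-coding genes the shares were 18.9% and 17.3%. Naive islands among the 98 numbered 2, close to the share of 2.51% over all protein-coding genes. Named after their values were seen, these were NKX2-8, which shares the gap of NKX2-1, and SHOX2. In LAD-rich surroundings were 18 of the 98 in naive, of which 14 lay in LADs, and 14 in primed, of which 9 did. Among all protein-coding genes in such surroundings, 80.2% lay in LADs in naive and 86.2% in primed. Of the 98, 7 genes under 25 kb had such surroundings in naive, and 2 of them were islands, against 20.3% of 1595 protein-coding genes. The 98 are longer than the 53, with a median body of 13.5 kb against 6.80 kb. The median distance of the 98 was 770.1 kb to a naive LAD and 893 kb to a primed one. The 39 HOX genes had no covered body, no island and median distances of 1305 and 2753 kb. The difference between the lists was not tested.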

How the data were processed

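The authors deposited 1 list of LAD intervals per state, with chromosome, start and end and no score or signal. Tools listed in the submitters' processing notes are SICER, BWA and SAMtools 1.10, with hg38 as build. Not given in the sources used here are the thresholds, the steps' order, how the 3 LMNB1 and 3 Dam-only libraries were combined and whether they came from separate cultures. The labels name final lists, while the lists used are called simple. Depth is unknown, and unmappable windows look the same as windows without lamina contact.

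Covered shares, distances and surrounding shares were computed in Python 3.11.15 with numpy 2.4.6, pandas 2.3.3 and matplotlib 3.10.9. The functions were tested on simulated LADs. Gene bodies were taken from RefSeq's annotation of GRCh38.p14, whose chromosomes are those of hg38. A start site is the 5′ end of the gene record where a strand was matched, and for promoters the listed start nearest to it. Surroundings were clipped at chromosome ends. With 1 list per state no test was made. The primed islands among the other homeobox genes are not reported here. Given in full are genes in LADs, islands, genes that differ by 20 points or more and the 3 farthest from LADs. The genes, lists and definitions were chosen with earlier results of these data known. As alternatives, gaps under 50 or 100 kb were filled, LADs shorter than 50 or 100 kb dropped and loci counted, and the covered share, island definition, surroundings and distance were varied.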

Additional observations from a re-analysis of the deposited data

How the results depend on the processing

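No paired analysis was possible because each state has 1 list of intervals that does not keep replicates apart, and for the same reason no replicate could be left out. Of 74 values under alternatives, 51 stayed within 1.5 times the main value, and 23 moved further. Some of the 51 could not move, since a primed median share of 0% cannot fall when LADs are dropped. The count in LADs (8 in each state) was 13 in naive with LADs less than 50 kb apart joined, 19 in naive and 16 in primed with those less than 100 kb apart joined, 5 in each without LADs under 100 kb, 4 and 5 with at least 90% of the body required, and again 4 and 5 by start sites, known for 38 genes of which 6 had their body in LADs in each state. The islands (9 in naive, 6 in primed) fell to 3 in primed when joined at 50 kb, and to 5 and 1 when joined at 100 kb, which by construction fills gaps narrower than that. Thus ISL1 and POU3F2 in both states, POU4F1 and BARHL2 in naive and SIX6 in primed lost their calls when gaps under 50 kb were filled, and DLX5 and DLX6 kept their call at 50 kb. At 100 kb, only NKX2-1 and NKX6-1 kept their naive calls, and none of the primed islands kept its call. The other islands counted at 100 kb were newly called genes. Without LADs under 100 kb primed had 8 islands, with MEIS1, MEIS2 and POU4F1 gained and NKX6-1 lost. Without short LADs, at other shares and with other surroundings, the counts ran from 6 to 11 in naive and from 6 to 8 in primed. The median surrounding share in naive (14.0%) was 23% and 32.4% when joined at 50 and 100 kb and 0% without LADs under 50 or 100 kb. In primed (0%) it was 1% over 2000 kb. The median distance (60.9 kb in naive, 656 kb in primed) was 1072 and 2298 kb without LADs under 50 kb, 1355 and 2323 kb without LADs under 100 kb, and again 1355 and 2323 kb to the nearest LAD of at least 100 kb. Counted as 45 loci, the genes gave 8 naive and 5 primed islands. Single 10 kb windows, whose depth is unknown, decide POU4F1 in primed and ALX1 in part.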
